A study of Homo sapiens with 4 samples.

Results

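EZH1, EZH2, EED and SUZ12 encode the core of Polycomb repressive complex 2 (PRC2), DNMT1, DNMT3A and DNMT3B encode the DNA methyltransferases, and TET1, TET2 and TET3 encode the dioxygenases that oxidise methylated cytosine. These 10 genes were taken by symbol from the 50868 genes in the deposited tables, and all 10 were among the 11503 genes whose FPKM averaged at least 1 over the libraries. FPKM is a count divided by the length of the gene and by the library's total. The cells were of the Jurkat line, long established from a human T-cell leukemia, harvested after 24 h. The groups were DMSO, the solvent, JQ1 at 0.5 µM, a bromodomain inhibitor, DMSO + PHA, with 150 ng/ml of the T-cell activating lectin PHA, and JQ1 + PHA, with both agents at these doses. Each group was 1 library of the same line, so a difference between libraries has no replicate check and carries no p-value. The intervals given are 95% exact (Clopper-Pearson) intervals for the ratio of a gene's share of all counts in a pair of libraries, and they cover counting error only, not the spread between cultures.

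PRC2 places methyl groups on histone H3 at lysine 27 (H3K27), a mark of genes that are kept silent. EZH2 and the related EZH1 are its catalytic subunits, EED reads the finished mark and stimulates the enzyme, and SUZ12 holds the complex together. DNMT1 copies DNA methylation onto the new strand after replication, and DNMT3A and DNMT3B add it at unmethylated sites. The TET enzymes start its removal, and in blood cancers TET2, DNMT3A, EZH2, EED and SUZ12 are known as mutated genes. EZH2 and the DNA methyltransferases are also targets of inhibitors used in the clinic.

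Total counts lay between 18620954 and 19685401, and between 20939 and 22118 genes had a count. HEXIM1, which JQ1 is known to raise, had an FPKM of 36.2 in DMSO, 109 in JQ1, 34.6 in DMSO + PHA and 104 in JQ1 + PHA. CD69, an early activation antigen of T cells, had 1.05, 0.77, 20.4 and 3.14 in the same order. Of 13 T cell markers, 13 passed the filter, and their summed FPKM was 944 in DMSO, 709 in JQ1, 1270 in DMSO + PHA and 824 in JQ1 + PHA. Among markers of other cells, 1 of 5 for B cells (CD79A), 0 of 5 for myeloid cells, 0 of 3 for erythroid cells and 1 of 4 for epithelial and stromal cells passed the filter. That 1 was PECAM1, which is not particular to those cells. It had an FPKM of 14.0 in DMSO, 1.65 in JQ1, 19.1 in DMSO + PHA and 2.22 in JQ1 + PHA. CD79A had 7.48, 1.06, 6.33 and 1.01 in the same order. The summed level of the T cell markers, and the levels of CD79A and PECAM1, were lower with JQ1. Of the 13 T cell markers, the counting interval lay below 0 for 12 and above it for 1, TRBC1. The part of these differences in the ratios of the 10 genes was not tested. In bulk RNA, fewer cells of a kind and less RNA per cell cannot be told apart.

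EED and SUZ12, partners in PRC2, and TET1 and TET2, enzymes of a single family, moved in opposite directions with JQ1 in the absence of PHA. The 250 bases before their starts are shown for this reason. They are from RefSeq on GRCh38.p14, on the strand of the gene and ending at the base before the start, all genes being on the plus strand, and capitals mark CG dinucleotides, the sites that DNMT and TET enzymes act on.
EED, chr11:86244503-86244752: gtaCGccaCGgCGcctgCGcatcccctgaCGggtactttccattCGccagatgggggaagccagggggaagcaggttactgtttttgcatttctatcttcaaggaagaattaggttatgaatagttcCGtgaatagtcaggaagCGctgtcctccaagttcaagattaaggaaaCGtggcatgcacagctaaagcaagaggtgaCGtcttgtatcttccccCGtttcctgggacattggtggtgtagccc
SUZ12, chr17:31936757-31937006: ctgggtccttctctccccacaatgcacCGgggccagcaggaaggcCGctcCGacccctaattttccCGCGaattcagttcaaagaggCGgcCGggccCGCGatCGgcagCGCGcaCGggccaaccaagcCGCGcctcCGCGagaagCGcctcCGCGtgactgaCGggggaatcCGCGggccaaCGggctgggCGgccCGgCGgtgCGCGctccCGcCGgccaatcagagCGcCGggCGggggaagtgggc
TET1, chr10:68560087-68560336: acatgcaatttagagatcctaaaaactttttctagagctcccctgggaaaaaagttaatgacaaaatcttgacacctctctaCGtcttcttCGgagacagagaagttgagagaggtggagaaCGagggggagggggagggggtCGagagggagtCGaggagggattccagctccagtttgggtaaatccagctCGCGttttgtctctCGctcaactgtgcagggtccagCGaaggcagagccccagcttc
TET2, chr4:105146626-105146875: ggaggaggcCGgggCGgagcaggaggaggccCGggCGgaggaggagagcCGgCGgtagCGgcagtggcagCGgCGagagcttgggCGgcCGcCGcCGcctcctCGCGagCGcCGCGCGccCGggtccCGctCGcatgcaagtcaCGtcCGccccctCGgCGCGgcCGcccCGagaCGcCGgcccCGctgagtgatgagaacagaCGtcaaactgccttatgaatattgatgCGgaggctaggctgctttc

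The pair that was lower with JQ1 had fewer CG sites before the start, 11 for EED and 9 for TET1, and the pair that was higher had 34 each. The observed over expected ratio of CG dinucleotides was 0.677 for EED and 0.559 for TET1, against 1.03 for SUZ12 and 1.04 for TET2. These are 4 windows chosen after the values had been seen, and nothing is drawn from them about control of the genes. Others of the 10 went against this split. In the absence of PHA, DNMT3A was lower with JQ1 (-0.26) with 33 CG sites, and DNMT3B was higher (0.39) with 3. EZH2 (0.13) and DNMT1 (0.09) were higher with 38 and 21, and the intervals of EZH1 and TET3 held 0. Over 35093 RefSeq promoters the median window held 11 CG sites with a ratio of 0.558, and 47.5% had a ratio over 0.6, as had 8 of the 10 genes. Of the other windows, those over 0.6 held between 21 CG sites (DNMT1) and 38 (EZH2), with 26 for EZH1, 33 for DNMT3A and 37 for TET3. The DNMT3B window, with 3 sites, lies 17467 bases from the start of the canonical transcript and may not be the start used in these cells. The other windows end at the canonical start, but those of TET2, DNMT1 and DNMT3A lie within the deposited bounds of their genes. Those of EED, EZH1 and EZH2 lie partly within them, so other starts may be used there too. The letters GGGCGG, a GC box, were on either strand of 6 of the 10 windows and of 42.6% of all promoters. CCAAT was in 4 (EZH2, EED, SUZ12 and DNMT3B) against 32.0%. The E2F-type octamer TTTCCCGC was in the SUZ12 window alone, 189 bases before the start, against 1.39% of all promoters, and its end overlaps no other motif searched. The E-box CACGTG was in the TET3 window alone, against 6.34%. The E2F octamers TTTCGCGC (0.439% of all promoters) and TTTGGCGC (0.550%), the ETS motif CCGGAAG (8.52%) and the CRE TGACGTCA (1.65%) were in 0 of the 10, which says only that these letters are not in these windows.

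By deposited FPKM, EZH2 stood highest and TET2 lowest. EZH2 had a mean FPKM of 36.0, above 94.0% of the genes past the filter, followed by DNMT1 at 21.5 and SUZ12 at 18.9, whose ranges over the libraries overlapped. TET3 (7.67), DNMT3B (6.30), DNMT3A (5.04) and EZH1 (4.92) formed a middle group in which each range overlapped the next. EED (3.78), TET1 (3.13) and TET2 (1.72) were the lowest, at percentiles 40.7, 34.2 and 15.3. The range of EED overlapped those of EZH1 and TET1, and that of TET2, from 1.25 to 1.97, lay under that of TET1, from 2.48 to 3.91. This order depends on the gene lengths behind the FPKM, which are 5.68 times the length of the canonical transcript for EED (11853 against 2088 bases) and 3.21 times for TET2 (30797 against 9589), but 0.966 times for TET1. Shares of counts per kilobase of canonical transcript, on the same scale as FPKM, kept EZH2 (108), DNMT1 (69.8) and SUZ12 (41.8) in the first places, moved EED from place 8 to place 4 (21.5), and put TET2 (5.51) above TET1 (3.02). The ratios between libraries do not depend on the length.

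**Figure D1:**
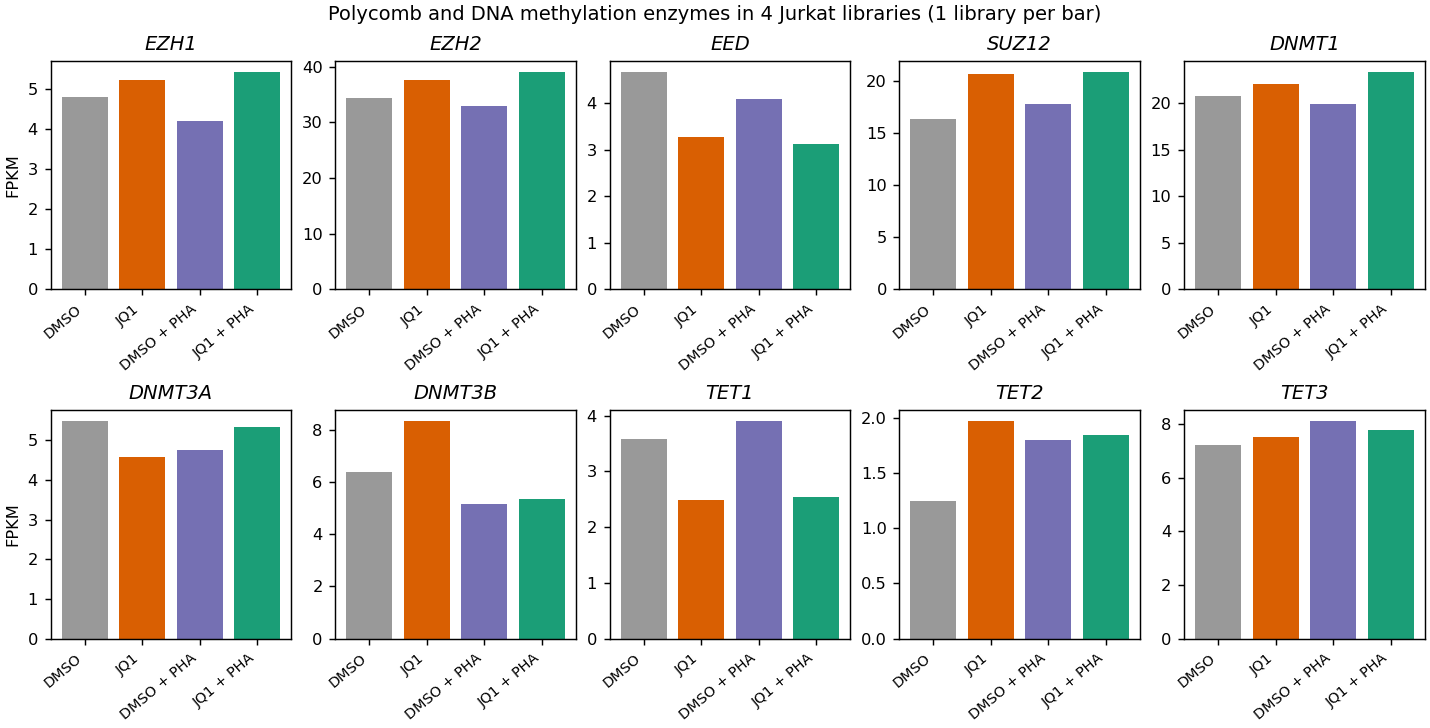
FPKM of the 10 genes (vertical axes, from 0, a scale for each gene) in the 4 Jurkat libraries (horizontal axes), 1 library per bar and so no error bars. EED and TET1 stood lower in both JQ1 libraries than in both DMSO libraries, TET2 stood lowest in DMSO at 1.25, and DNMT3B stood highest in JQ1 without PHA at 8.34.

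With JQ1, 0 of the 10 genes reached a 2-fold difference in FPKM, where 13.9% of the genes past the filter did. The same held with PHA present, 0 of 10 against 11.7%. PHA itself took 0 of 10 past 2-fold, against 3.29% of all genes in DMSO and 2.07% in JQ1. At 1.5-fold, 1 of the 10 passed with JQ1 alone (TET2, 34.1% of all genes), 1 with JQ1 under PHA (TET1, 29.5%), 0 with PHA in DMSO (9.41%), and 1 with PHA in JQ1 (DNMT3B, 5.63%). The median absolute log2 ratio of the 10 was 0.30 with JQ1 and 0.23 with JQ1 under PHA, against 0.41 and 0.36 for all genes. Their signed median was 0.10 in both, against -0.01 and -0.02.

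Smaller differences were often larger than counting error, among the 10 and among all genes. With JQ1, in either setting, the 10 stood near the share of all genes. The interval left out 0 for 8 genes with JQ1 (5 higher and 3 lower, 75.6% of all genes past the filter), for 7 with JQ1 under PHA (5 and 2, 72.9%), for 9 with PHA in DMSO (3 and 6, 49.8%), and for 3 with PHA in JQ1 (2 and 1, 31.4%). These counts depend on depth, and differences of this size between single libraries cannot be told apart from the spread between cultures.

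Of the catalytic subunits, EZH2 (ENSG00000106462, chromosome 7 from 148807383 to 148884321) had an FPKM of 34.3 in DMSO, 37.7 in JQ1, 32.9 in DMSO + PHA and 39.0 in JQ1 + PHA, from 5138, 5899, 5152 and 5785 counts. Both JQ1 libraries stood above both DMSO libraries. On the log2 scale its share of counts was higher by 0.13 (interval 0.08 to 0.19) with JQ1 alone and by 0.25 (0.19 to 0.30) under PHA. EZH1 (ENSG00000108799, chromosome 17 from 42700275 to 42745049), the subunit typical of resting cells, had 4.81, 5.22, 4.20 and 5.43 in the same order. It was again higher in both JQ1 libraries, by 0.12 (-0.0044 to 0.24), an interval that reaches 0, and by 0.37 (0.24 to 0.49). Between 4.97 and 5.46 counts of EZH2 were found for each count of EZH1 in every library.

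EED (ENSG00000074266, chromosome 11 from 86244544 to 86278813) was the only 1 of the 4 PRC2 genes taken here that was lower with JQ1. RBBP4, a histone-binding subunit that is often counted with the core and stood in the accessory list here, was lower by less. Its ratio was -0.10 (-0.15 to -0.06) without PHA and -0.17 (-0.22 to -0.13) with it. RBBP7, its relative on the same list, was higher, by 0.31 (0.24 to 0.37) without PHA and 0.25 (0.18 to 0.31) with it. EED had an FPKM of 4.67 in DMSO, 3.27 in JQ1, 4.09 in DMSO + PHA and 3.11 in JQ1 + PHA. Its counts were 1041, 762, 954 and 687 in the same order. The log2 ratio was -0.51 (-0.65 to -0.38) without PHA and -0.39 (-0.54 to -0.25) with it, 1.43-fold and 1.31-fold lower. SUZ12 (ENSG00000178691, chromosome 17 from 31937018 to 32001045) was higher in both JQ1 libraries, with 16.4, 20.7, 17.8 and 20.9 FPKM from 3053, 4039, 3476 and 3857 counts. Its ratio was 0.34 (0.27 to 0.41) and 0.23 (0.16 to 0.30), 1.26-fold and 1.17-fold higher.

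The balance between PRC2 subunits, which does not depend on how the libraries are scaled, shows the opposite movement of EED. There were 0.341 counts of EED for each count of SUZ12 in DMSO, 0.189 in JQ1, 0.274 in DMSO + PHA and 0.178 in JQ1 + PHA. The log2 change with JQ1 was -0.85 (Wald interval for counting error, -1.005 to -0.70) and with JQ1 under PHA -0.62 (-0.78 to -0.47). Against EZH2 the corresponding changes of EED were -0.65 (-0.79 to -0.50) and -0.64 (-0.79 to -0.49). EZH2 against SUZ12 changed far less, by -0.20 (-0.29 to -0.12) and 0.02 (-0.07 to 0.10). These pairs were chosen after the values had been seen, and amounts of RNA are not amounts of protein, which these data do not measure.

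Of the DNA methyltransferases, DNMT1 (ENSG00000130816, chromosome 19 from 10133345 to 10231286), the maintenance enzyme, had 20.8 FPKM in DMSO, 22.1 in JQ1, 19.9 in DMSO + PHA and 23.4 in JQ1 + PHA, from 6683, 7422, 6707 and 7433 counts. It was slightly higher with JQ1 in both settings, by a log2 ratio of 0.09 (0.04 to 0.13) and 0.23 (0.18 to 0.28). Its highest FPKM was 1.17 times its lowest, and TET3 alone among the 10 varied less (1.12 times).

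DNMT3A and DNMT3B, both enzymes for new methylation, did not move together. DNMT3A (ENSG00000119772, chromosome 2 from 25227855 to 25342590) had 5.49 FPKM in DMSO, 4.57 in JQ1, 4.76 in DMSO + PHA and 5.34 in JQ1 + PHA, from 1762, 1534, 1600 and 1696 counts. Either agent alone went with a lower level than DMSO and the combination stood close to DMSO. Its ratio with JQ1 was -0.26 (-0.36 to -0.17) without PHA and 0.16 (0.06 to 0.26) with it. DNMT3B (ENSG00000088305, chromosome 20 from 32762385 to 32809356) had 6.37, 8.34, 5.16 and 5.34 FPKM from 707, 968, 599 and 586 counts, so that JQ1 without PHA stood above the other libraries. Its ratio with JQ1 was 0.39 (0.25 to 0.53) without PHA and 0.05 (-0.12 to 0.22) with it. Addition of PHA to JQ1 went with a ratio of -0.64 (-0.79 to -0.49), 1.56-fold lower, and addition of PHA to DMSO with -0.30 (-0.46 to -0.15).

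Thus 0.401 counts of DNMT3B were found for each count of DNMT3A in DMSO, 0.631 in JQ1, 0.374 in DMSO + PHA and 0.346 in JQ1 + PHA. The log2 change of this balance with JQ1 was 0.65 (0.48 to 0.82) without PHA and -0.12 (-0.31 to 0.08) with it. DNMT1 stayed the most abundant in counts, with between 3.79 and 4.84 for each count of DNMT3A.

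Of the TET enzymes, TET1 (ENSG00000138336, chromosome 10 from 68560656 to 68694482) had 3.59 FPKM in DMSO, 2.48 in JQ1, 3.91 in DMSO + PHA and 2.53 in JQ1 + PHA, from 627, 454, 714 and 438 counts. It was lower with JQ1 in both settings, by -0.53 (-0.71 to -0.35) and -0.62 (-0.80 to -0.45), 1.44-fold and 1.54-fold. PHA moved it by 0.12 (-0.03 to 0.28) in DMSO and 0.03 (-0.16 to 0.22) in JQ1, and both intervals hold 0.

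TET2 (ENSG00000168769, chromosome 4 from 105145875 to 105279816), the TET gene most often mutated in blood cancers, had 1.25 FPKM in DMSO, 1.97 in JQ1, 1.80 in DMSO + PHA and 1.84 in JQ1 + PHA, from 723, 1194, 1093 and 1056 counts. The DMSO library stood under the other 3, which lay close to each other. JQ1 went with a ratio of 0.66 (0.52 to 0.79) without PHA, 1.58-fold higher and the largest of the 10, and of 0.03 (-0.09 to 0.15) with it. PHA went with 0.53 (0.39 to 0.67) in DMSO and -0.10 (-0.22 to 0.02) in JQ1. Each agent alone went with more TET2, and the combination stood at about the level of either. As 1 DMSO library is in both ratios, they share its error.

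TET3 (ENSG00000187605, chromosome 2 from 73986404 to 74108176) had the smallest range over the libraries of the 10, with 7.24, 7.54, 8.12 and 7.78 FPKM from 2121, 2310, 2489 and 2257 counts. Its JQ1 ratios were 0.06 (-0.03 to 0.14) and -0.06 (-0.14 to 0.02), and both intervals hold 0. PHA went with 0.17 (0.08 to 0.25) in DMSO and 0.05 (-0.04 to 0.13) in JQ1. The family's balance moved from TET1 towards the others, with 1.15 counts of TET2 for each of TET1 in DMSO, 2.63 in JQ1, 1.53 in DMSO + PHA and 2.41 in JQ1 + PHA. Its log2 change was 1.19 (0.97 to 1.41) with JQ1 and 0.66 (0.44 to 0.87) with JQ1 under PHA. TET3 against TET1 changed by 0.59 (0.40 to 0.78) and 0.56 (0.37 to 0.75).

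**Figure D2:**
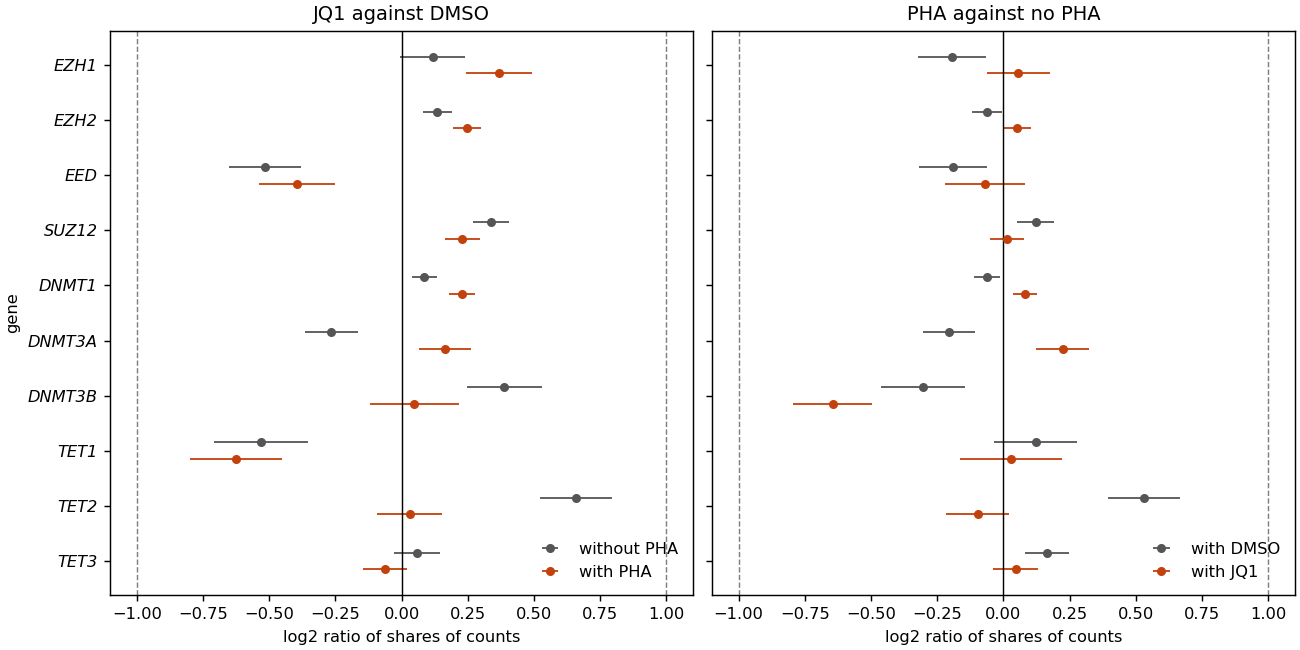
Log2 ratios of the share of counts (horizontal axes) for the 10 genes (vertical axis), with 95% exact intervals that cover counting error only. The left panel compares JQ1 with DMSO and the right panel PHA with no PHA, dashed lines stand at 2-fold, and no point reaches them. EED and TET1 lie left of 0 in both JQ1 comparisons, and the points of DNMT3A lie on opposite sides of 0 in both panels.

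The JQ1 ratio with PHA minus that without it was beyond counting error (95% Wald interval) for 8 of the 10 genes, against 42.0% of 11481 genes, and its median size was 0.13 for the 10 against 0.19 for all. By size it was largest for TET2, -0.63 (-0.81 to -0.45), DNMT3A, 0.43 (0.29 to 0.57), and DNMT3B, -0.34 (-0.56 to -0.12). EZH1 followed with 0.25 (0.08 to 0.42). For EED, 0.12 (-0.07 to 0.32), and TET1, -0.09 (-0.34 to 0.15), the interval holds 0, so a difference between the settings was not detectable at this depth. With 1 library in each group this comparison covers counting error alone. The count of 8 depends on depth, and the 10 were not matched for depth to the other genes.

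Reads shared with other loci bear on some of these values. The pseudogene copy SUZ12P1 had 236 counts in DMSO, 306 in JQ1, 228 in DMSO + PHA and 255 in JQ1 + PHA, at most 7.73% of those of SUZ12, and 9.67% of the 4446 windows of 50 bases in SUZ12 are also in transcripts of other genes. How the authors' counting placed such reads is not stated in the sources used here, so the level of SUZ12 is uncertain by about this share. EZH2P1 had at most 4 counts. Within TET1, the pseudogene COX20P1 on the same strand had between 34 and 51 counts, at most 7.76% of those of TET1. S1PR2, which overlaps DNMT1 on the same strand, had between 23 and 145, at most 2.16%. The antisense gene TET2-AS1 had 0 counts in every library, and whether the counting used strand is not stated.

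The gene whose profile was most like that of DNMT3B, the most variable of the 10 (a range of 0.68 on the log2 FPKM scale), was TCF7L2, a transcription factor of Wnt signalling. Its FPKM was 1.03 in DMSO, 1.41 in JQ1, 0.792 in DMSO + PHA and 0.833 in JQ1 + PHA, and the root mean square distance of the centred profiles was 0.028 over 4 libraries. CPT1B (0.041), a carnitine palmitoyltransferase, and AC111200.7 (0.044) came next among 11502 genes. With 4 points, close profiles are found among many genes by number alone.

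Some other subunits of the Polycomb complexes passed 2-fold, at shares that are read against those of all genes, 13.9% with JQ1 and 11.7% with JQ1 under PHA. Of the accessory subunits of PRC2, 10 passed the filter, with 0 higher and 0 lower past 2-fold with JQ1 and 0 higher and 2 lower with JQ1 under PHA, and medians of 0.14 and 0.02 on the log2 FPKM scale. The 2 were C17orf96 (EPOP), at 12.2 FPKM in DMSO, 6.11 in JQ1, 11.9 in DMSO + PHA and 5.89 in JQ1 + PHA, and PHF19, a Tudor-domain protein that brings PRC2 to chromatin, at 5.15, 3.38, 8.02 and 3.84. JARID2, which recruits PRC2, was the 1 accessory subunit past 2-fold with PHA in DMSO, at 26.7, 30.1, 55.5 and 33.2, while EZH2 and EED were slightly lower there. In JQ1 + PHA it stood under DMSO + PHA and above both libraries without PHA. PHF1, a relative of PHF19, was higher with JQ1, at 2.26, 3.48, 1.97 and 3.01.

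Of 27 PRC1 subunits, which ubiquitinate histone H2A, 27 passed the filter, with 1 higher and 2 lower past 2-fold with JQ1 and 0 and 1 with JQ1 under PHA. RYBP, a subunit of the variant complexes, was the 1 that was higher, at 8.84 FPKM in DMSO, 21.3 in JQ1, 11.3 in DMSO + PHA and 21.6 in JQ1 + PHA. SCMH1 (10.8, 4.35, 8.98 and 4.87) and L3MBTL2 (7.70, 3.75, 7.51 and 3.62) were the 2 that were lower. The median was -0.07 with JQ1 and 0.01 with JQ1 under PHA, against -0.01 and -0.02 for all genes.

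Most genes listed for the removal of Polycomb marks, demethylases and members of the H2A deubiquitinase complex, stood higher with JQ1. Of the 10 genes on this list, 9 passed the filter, with medians of 0.43 and 0.45, and 0 passed 2-fold in either comparison. The counting interval lay above 0 for 6 and below it for 1 with JQ1, and above 0 for 8 and below it for 1 with JQ1 under PHA, where it lay above 0 for 36.9% and 34.6% of all genes past the filter. KDM6A, a demethylase of H3K27, had 3.35 FPKM in DMSO, 6.48 in JQ1, 4.33 in DMSO + PHA and 6.73 in JQ1 + PHA, and KDM6B, its relative, had 6.01, 10.8, 7.58 and 10.8. Both writers of the mark, EZH2 and EZH1, were higher as well, by less than KDM6A and KDM6B.

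Genes that work beside the DNMT and TET enzymes moved in both directions. The 8 cofactors of DNA methylation past the filter had medians of 0.16 with JQ1 and 0.12 with JQ1 under PHA, the 7 readers of methylated CG sites 0.22 and 0.16, and the 6 TET partners and base excision genes -0.02 and 0.04. For the cofactors the counting interval lay above 0 for 5 and below it for 3 with JQ1. ZNF445, a zinc finger protein of imprinting control, was among those that were higher, at 5.21 FPKM in DMSO, 9.20 in JQ1, 5.35 in DMSO + PHA and 8.82 in JQ1 + PHA. In these lists, 1 gene passed 2-fold in a JQ1 comparison, the base excision nuclease APEX1, at 11.2 FPKM in DMSO, 7.73 in JQ1, 11.1 in DMSO + PHA and 5.24 in JQ1 + PHA. USP7, which stabilises DNMT1, had 61.4, 40.8, 45.6 and 38.8, while DNMT1 itself was slightly higher with JQ1.

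**Figure D3:**
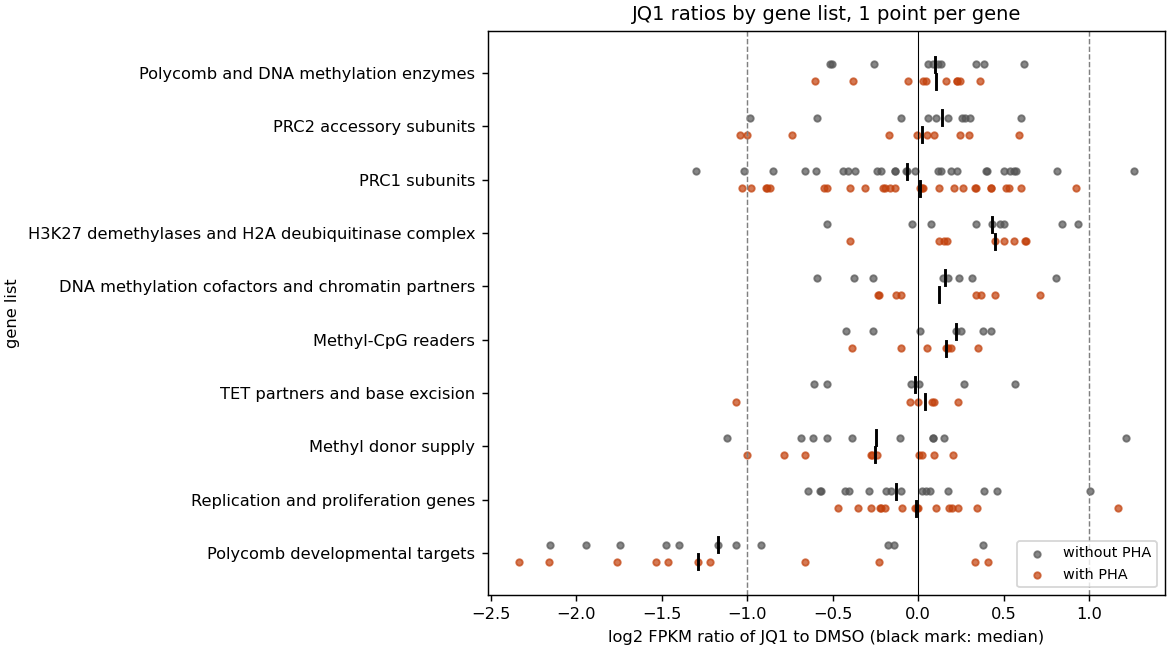
Log2 FPKM ratios of JQ1 to DMSO (horizontal axis) by gene list (vertical axis), 1 point per gene past the filter, grey without and orange with PHA, with black marks at the medians and dashed lines at 2-fold. The Polycomb and DNA methylation enzymes lie within the dashed lines. The median of the list of H3K27 demethylases and the H2A deubiquitinase complex is 0.43 and 0.45, and that of the developmental targets is -1.17 and -1.29.

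Most developmental genes that are known as Polycomb targets, chiefly HOX genes, were lower with JQ1 among those with counts. Of 46 on the list, 26 had more than 3 counts in at least 1 library. A low gene enters more easily through libraries where it is high, as do the genes of the shares given beside them. What follows on the 26 is therefore a description. With JQ1 the counting interval lay below 0 for 18 of the 26 and above it for 1, where it lay below 0 for 31.3% of the genes with as many counts. With JQ1 under PHA it lay below 0 for 16 and above it for 3, where it lay below 0 for 32.3% of such genes. With PHA in DMSO it lay below 0 for 2 and above it for 2. The summed FPKM of the list was 35.4 in DMSO, 17.2 in JQ1, 34.2 in DMSO + PHA and 18.8 in JQ1 + PHA.

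The 11 that passed the filter had a median of -1.17 with JQ1 and -1.29 with JQ1 under PHA, and 7 were lower past 2-fold in each. A low gene passes the filter more easily through libraries where it is high, so these 11 are a description. HOXB7 had 4.34 FPKM in DMSO, 0.90 in JQ1, 3.57 in DMSO + PHA and 0.72 in JQ1 + PHA, from 194, 42, 167 and 32 counts. HOXA5 had 3.75, 1.05, 3.27 and 0.57 from 140, 41, 128 and 21 counts. Both were lower in each JQ1 library than in each DMSO library, as was HOXC10, at 2.19, 0.72, 2.54 and 0.81. HOXB3 was an exception, at 1.20, 1.59, 1.48 and 1.90, and in both comparisons its counts were higher with JQ1. HOXB4 was another, with log2 ratios of counts of -0.15 (-0.42 to 0.12) with JQ1 and 0.42 (0.16 to 0.69) with JQ1 under PHA. HOXD8, which did not pass the filter, had 67, 26, 15 and 34 counts. Its ratios were -1.43 (-2.14 to -0.76) with JQ1 and 1.26 (0.35 to 2.24) with JQ1 under PHA. CDKN2A, a much studied Polycomb target, had at most 2 counts in any library. Why it was so low was not tested, and these counts do not show that it was silenced. These HOX levels moved with JQ1 while EZH2, SUZ12 and EZH1 stood slightly higher and EED lower, and no link between them was tested.

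**Figure D4:**
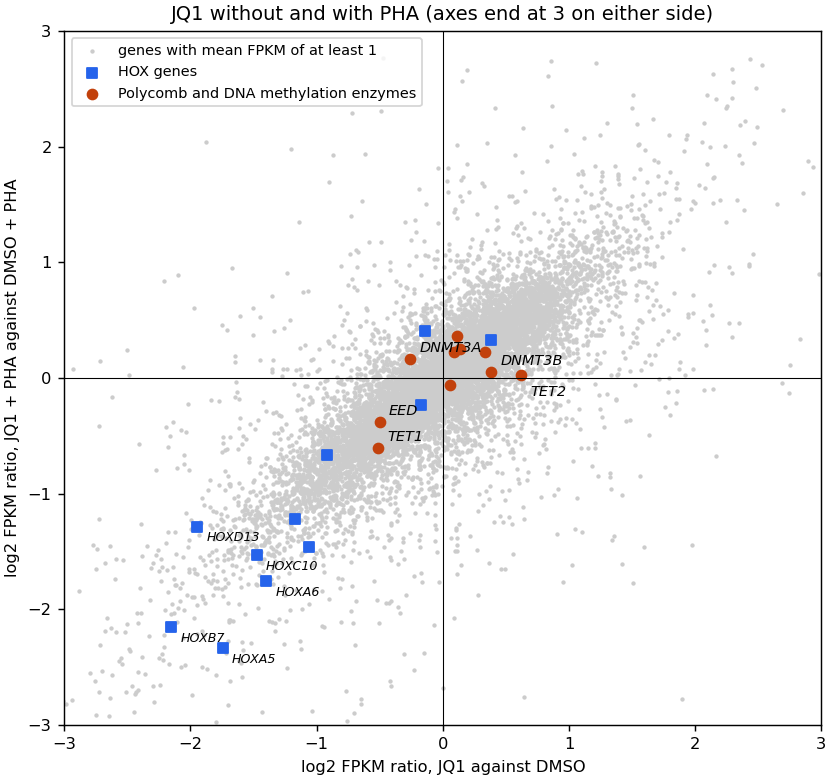
Log2 FPKM ratio of JQ1 to DMSO without PHA (horizontal axis) and with PHA (vertical axis), 1 point per gene past the filter, with points beyond 3 on either axis not shown. The 10 Polycomb and DNA methylation genes (orange circles) lie near the centre, with TET1 and EED in the lower left and TET2 at 0.62 on the horizontal axis, and most HOX genes (blue squares) lie far to the lower left.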

How the data were processed

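RNA-seq libraries of Jurkat cells were compared, 1 per condition. Alignment by the authors was with Hisat2 2.0.4, on GRCh38. The submitters' processing notes also list TopHat2 2.0.9 and Cufflinks 2.1.1 without a role. How reads were counted, whether strand was used and which annotation served are not given in the sources used here. The deposited counts are reads per gene, not normalized, and the authors' FPKM are these counts over the length of the gene and the library total.

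Log2 ratios of FPKM were computed after a pseudocount of 0.1 where FPKM averaged 1 or more (11503 genes), and 2-fold was the threshold. Log2 ratios of counts used shares of the library total, with exact Clopper-Pearson intervals, and differences of such ratios and ratios of genes used Wald intervals. There was no test, as each condition had 1 library. Library totals were 18620954 to 19685401, and 3 counts, the floor, were 0.152 to 0.161 CPM. Groups came from the sample labels. The 10 genes and the 16 other lists were chosen with earlier results of these data known. From each other list, genes were named from the 4 with the largest JQ1 ratios that had the same direction in both comparisons, ranked by the smaller ratio, and the 2 with the largest PHA ratio in DMSO. CDKN2A, HOXB4, HOXD8, RBBP4, RBBP7 and TRBC1 were chosen after their values had been seen. So were genes counted past 2-fold that this rule leaves out, and the balances between genes. Canonical transcripts and strands are from GENCODE release 44, and promoters from RefSeq.

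The steps were tested on simulated data. Alternatives were the fold threshold, the pseudocount, the filter, ratios centred on the median gene, and edgeR or DESeq2 scaling factors. Levels per kilobase of canonical transcript were added after seeing the data. Tools were Python 3.11.15, numpy 2.4.6, pandas 2.3.3, scipy 1.17.1, matplotlib 3.10.9, R 4.3.3, edgeR 4.0.16 and DESeq2 1.42.0.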

Additional observations from a re-analysis of the deposited data

Results flagged for a closer look

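For some of the 10 genes the log2 ratios of counts had opposite signs in the 2 settings of a contrast, each setting being 1 pair of libraries. The differences were not tested against the spread between cultures. The JQ1 ratio of DNMT3A was -0.26 without PHA and 0.16 with it, a difference of 0.43, and that of TET3 was 0.06 and -0.06, a difference of -0.12. The PHA ratio of DNMT3A was -0.20 in DMSO and 0.22 in JQ1, again 0.43 apart. That of TET2 was 0.53 and -0.10, a difference of -0.63. Smaller changes of sign with PHA were seen for EZH1 (-0.20 and 0.06, a difference of 0.25), DNMT1 (-0.06 and 0.08, a difference of 0.14) and EZH2 (-0.06 and 0.05, a difference of 0.11). The intervals of both ratios left out 0 for DNMT3A in both contrasts and for DNMT1.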

How the results depend on the processing

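No paired analysis was possible because each condition had 1 library, and for the same reason no library could be left out. With 1.5-fold in place of 2-fold, 1 of the 10 genes passed with JQ1, 1 with JQ1 under PHA and 1 with PHA in JQ1, where 0 had passed at 2-fold. The counts of the 10 genes past 2-fold stayed at 0 under every pseudocount, filter and scaling tried, and no ratio of the 10 changed sign. Scaling by TMM or DESeq2 factors or centring moved the ratios by at most 0.06. DESeq2 factors gave 10 of the 10 with an interval without 0 with JQ1 in place of 8, adding EZH1 and TET3, and TMM and centring added EZH1. Centring took EZH2 out of the genes that differed with PHA in DMSO, and TMM and centring added it with PHA in JQ1. Over all genes, those past 2-fold with JQ1 numbered 1595, but 881 with a pseudocount of 1, 4742 without the filter and 570 with a filter at FPKM of 5. With JQ1 under PHA they numbered 1344, 754, 4500 and 467, with PHA in DMSO 378, 189, 2588 and 104, and with PHA in JQ1 238, 114, 2058 and 68, in the same order. Depth limits the low genes, and intervals and floors cover counting error only.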

Other observations

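A list for supply of the methyl donor used by the EZH and DNMT enzymes held 10 genes, including the AHCY relatives AHCYL1 and AHCYL2. All 10 passed the filter, with a median log2 FPKM ratio of -0.25 in both JQ1 comparisons, against -0.01 and -0.02 for all genes. The counting interval lay below 0 for 6 and above it for 2 with JQ1, and below 0 for 6 and above it for 1 with JQ1 under PHA, where it lay below 0 for 38.7% and 38.2% of all genes past the filter. Past 2-fold, 1 was higher and 1 lower with JQ1, and 0 and 0 with JQ1 under PHA. AHCYL2, a relative of AHCY, was the 1 that was higher, at 3.21 FPKM in DMSO, 7.58 in JQ1, 3.27 in DMSO + PHA and 3.49 in JQ1 + PHA. MTHFD1, of the folate cycle, was the 1 that was lower and had 32.0 FPKM in DMSO, 14.7 in JQ1, 29.0 in DMSO + PHA and 14.5 in JQ1 + PHA. MAT2A, which makes S-adenosylmethionine, had 161, 100, 151 and 95.7. Of 16 replication and proliferation genes, 1 was higher past 2-fold in each JQ1 comparison, RRM2, a subunit of ribonucleotide reductase, at 33.2, 66.6, 30.9 and 69.7. MCM7 of the replicative helicase had 50.6, 32.3, 48.5 and 35.0, and the median of the list was -0.13 with JQ1 and -0.01 with JQ1 under PHA. Of 18 germline genes known to be silenced by promoter methylation, 0 passed the filter, and 6 had more than 3 counts in at least 1 library. Of all 50868 genes, 11503 passed the filter and 19416 had more than 3 counts in at least 1 library. Silencing of these genes was not tested.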
